A study of Mus musculus with 21 samples.

Results

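Glycine tRNAs were read out in 21 tRNA libraries of C57BL/6J mice, made from cerebrum or cerebellum. The members were all rows of the count tables whose names start with Gly and that are not marked as mitochondrial. The cerebrum table held 9 of them among 209 tRNAs, and 10 among 208 stood in that of the cerebellum, which makes 10 of 213 in all. They comprise 4 isodecoders with the anticodon GCC, 4 with CCC, 1 with TCC and 1 with ACC. An isodecoder is a tRNA sequence that shares its anticodon with sister sequences. The mutant mice carried a tamoxifen-induced Polr3a mutation, and the Wildtype mice received tamoxifen too. All were fed ad libitum, tamoxifen-driven recombination took place on postnatal day 28, and brains were collected and frozen on postnatal day 42. Cerebrum gave 4 mutant and 6 wildtype libraries, cerebellum 5 mutant and 6 wildtype. Each group held libraries labelled male and female, in unlike proportions between genotypes, and the main fits did not include sex. The sources used here do not name the promoter that drives the recombinase. Nothing in the labels says that libraries came from separate mice, so p-values measure the spread between these libraries alone. A tRNA library measures neither Polr3a nor mRNA markers of cell types, so genotype and tissue were not checked in these counts.

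RNA polymerase III transcribes nuclear tRNA genes from promoter elements inside the genes, the A and B boxes, and Polr3a encodes its largest subunit. Glycine is encoded by the codons GGN. The GCC anticodon reads GGC and GGU, the UCC anticodon, written TCC here as in the tables, reads GGA and can wobble to GGG, and CCC reads GGG. Glycine tRNAs are known in neurology because mutant forms of glycyl-tRNA synthetase that cause Charcot-Marie-Tooth neuropathy hold on to tRNA-Gly, and extra tRNA-Gly with the GCC anticodon lessens the disease in mouse models.

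RefSeq lists 28 nuclear glycine tRNA genes in the mouse assembly GRCm38.p6, which is the mm10 build, with 14 genes for GCC, 7 for TCC, 6 for CCC and 1 for ACC. The GCC and CCC genes are 71 bases long, the TCC genes 72 and the ACC gene 74. A run of 9 of these genes, 4 GCC and 5 TCC, lies on chromosome 1 between 171037997 and 171102827, and 4 genes, 3 CCC and 1 TCC, lie on chromosome 3 between 96351167 and 96501080. RefSeq symbols do not carry isodecoder numbers, so the rows could not be assigned to genes. Gly-TCC-MT, the mitochondrial counterpart, was kept apart because it is transcribed by the mitochondrial polymerase. It is the glycine tRNA with the same anticodon that RNA polymerase III does not make. Its gene, mt-Tg, lies on the plus strand at chrM:9391-9458 of mm10 in the GENCODE M21 annotation. Its sequence is shown 5′ to 3′ with the anticodon in capitals.
mt-Tg: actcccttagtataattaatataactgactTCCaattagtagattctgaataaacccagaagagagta

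Total counts ran from 4365247 to 7614658 per library in cerebrum and from 1628057 to 7158467 in cerebellum. In cerebellum, mutant 1 and wildtype 1, 2, 3, 4 and 6 were shallow, under 3000000 counts, while mutants 2 to 5 and wildtype 5 were deep, so depth and genotype were nearly the same split. Mitochondrial tRNAs took a higher share of tRNA counts in mutants, 14.3% ± 1.19 (SD, n = 4) against 11.2% ± 0.445 (SD, n = 6) in cerebrum and 17.2% ± 3.005 (SD, n = 5) against 13.4% ± 0.700 (SD, n = 6) in cerebellum. The spike-in, named for E. coli in the tables, also took a higher mean share in mutants, 0.329% against 0.266% in cerebrum and 0.884% against 0.634% in cerebellum. Unless another scaling is named, levels are given as CPM, counts relative to a library total that was scaled with TMM within a tissue, so that the bulk of the tRNA pool is held constant.

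Nuclear glycine tRNAs made up 2.83% ± 0.336 (SD, n = 6) of nuclear tRNA counts in wildtype cerebrum and 5.03% ± 0.102 (SD, n = 6) in wildtype cerebellum. In mutants the share was 3.18% ± 0.653 (SD, n = 4) in cerebrum and 4.86% ± 0.391 (SD, n = 5) in cerebellum. Between 88260 and 166679 glycine counts stood behind these shares in each cerebrum library, and between 70162 and 258516 in each cerebellum library. Nearly all of them came from 3 sequences. In wildtype cerebrum Gly-TCC-1 held 41.3% ± 1.29 (SD, n = 6) of glycine counts, Gly-CCC-1 40.1% ± 1.37 and Gly-GCC-4-1 12.03% ± 0.227. Gly-GCC-1 followed with 4.38% ± 0.659.

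The order of levels was clear at the top and tied in the middle. In wildtype cerebrum Gly-TCC-1 stood at 10243 ± 1107 CPM (SD, n = 6) and Gly-CCC-1 at 9914 ± 542 CPM, and their ranges overlapped. Gly-GCC-4-1 at 2980 ± 272 CPM and Gly-GCC-1 at 1081 ± 167 CPM lay apart from both and from each other. Gly-GCC-3-1 (184.7 ± 19.7 CPM) and Gly-GCC-2 (184.7 ± 16.1 CPM) could not be told apart, and Gly-CCC-3-1 (131 ± 46.6 CPM) overlapped them. Gly-CCC-2 (31.0 ± 12.8 CPM) and Gly-ACC-1-1 (4.73 ± 1.61 CPM, a mean of 24 counts per library) were the scarcest. In wildtype cerebellum the 6 most abundant again ran from Gly-TCC-1 (17536 ± 1992 CPM) down to Gly-GCC-2 and Gly-GCC-3-1, while Gly-CCC-2 (351 ± 32.7 CPM) had drawn level with Gly-CCC-3-1 (349 ± 27.97 CPM). Gly-CCC-4-1, listed only in the cerebellum table, had mean counts of 18.6 in mutants and 16.3 in wildtype and did not pass the filter on low counts in the main fit. Dividing each CPM by the gene length of its anticodon left the rank of every glycine tRNA as it was in each of the 4 groups. Lengths of 71 to 74 bases are so close that the ranks could hardly have moved.

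**Figure D1:**
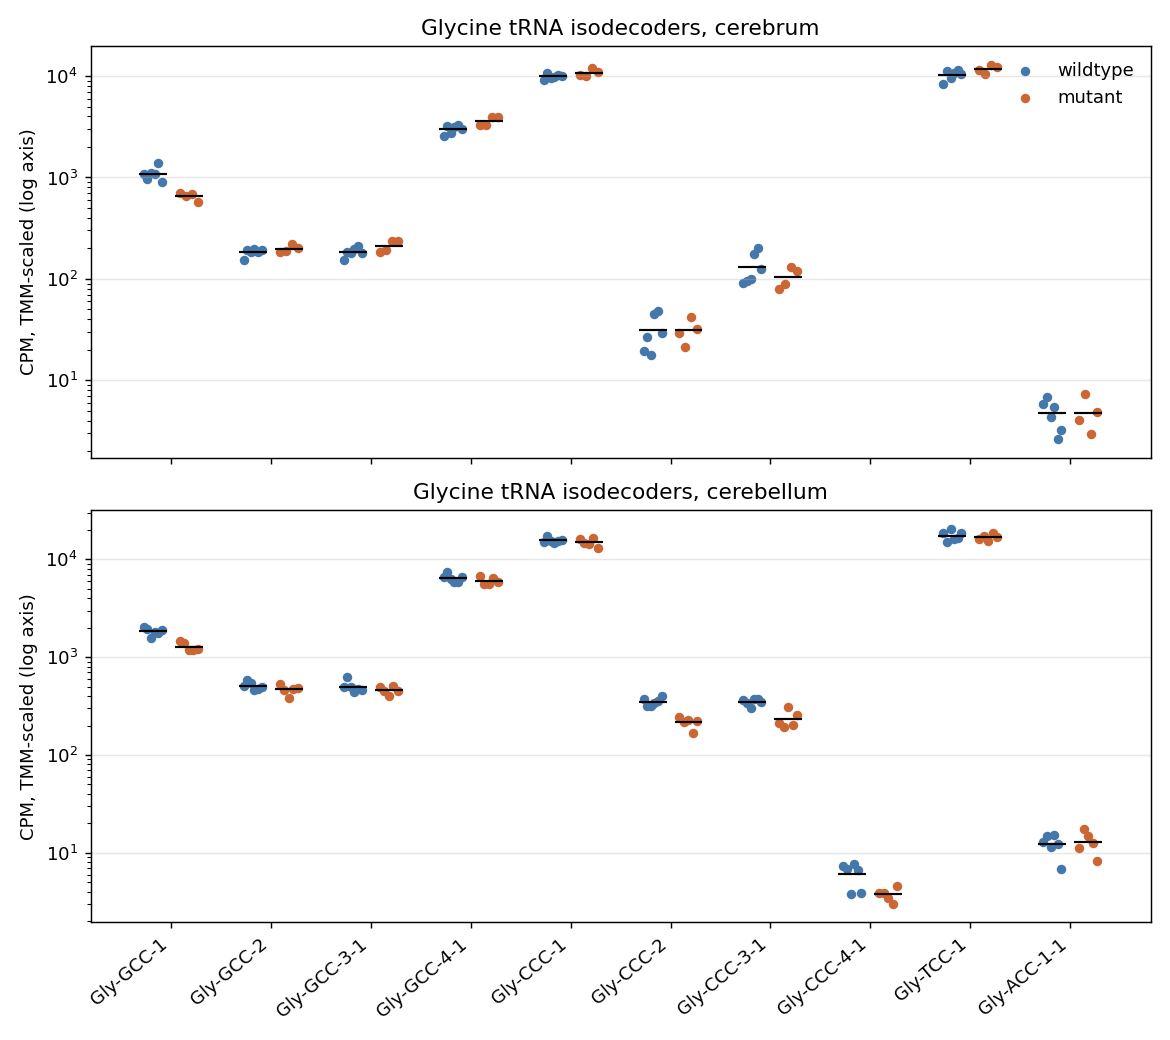
Levels of each glycine isodecoder in every library (CPM after TMM scaling within a tissue, log axis); points are libraries, black bars are group means, blue is wildtype and orange is mutant. Gly-GCC-1 in both tissues and Gly-CCC-2 in cerebellum are lower in mutants without overlap, and Gly-GCC-4-1 in cerebrum is higher without overlap. Of all tRNAs tested, 9.62% were lower and 5.77% higher without overlap in cerebrum, and 1.98% and 0.99% in cerebellum.

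The cerebrum comparison asked which glycine tRNAs differed between Polr3a mutant and wildtype libraries. One fell, Gly-GCC-1, a minor isodecoder of the anticodon that reads GGC and GGU. Its level was 703, 657, 692 and 572 CPM in the 4 mutants and ran from 900.1 to 1384 CPM, with a median of 1073, in the 6 wildtype libraries. Every mutant lay below every wildtype library. The log2 change was −0.72 ± 0.14 (SE, adjusted p = 0.000653 in the quasi-likelihood test of edgeR). The wildtype mean was 1081 ± 167 CPM (SD, n = 6) and the mutant mean 656 ± 59.4 CPM (SD, n = 4). It passed the threshold of 0.05 with any library left out and under every scaling tried, with log2 changes of −1.12 when libraries were scaled to their mitochondrial total and −1.08 when scaled to the spike-in. Of all 208 tRNAs tested, 19.7% passed, 11.5% as lower and 8.17% as higher, so 1 lower call among 9 glycine tRNAs is near the background. Without overlap, 9.62% of all tRNAs were lower in mutants and 5.77% higher.

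The other GCC isodecoders did not follow Gly-GCC-1. Gly-GCC-4-1, the main one, lay at 3278, 3313, 3907 and 3909 CPM in mutants and from 2570 to 3265 CPM, with a median of 3056, in wildtype. All 4 mutants were above all 6 wildtype libraries, yet the log2 change of 0.27 ± 0.11 (SE) did not pass (edgeR adjusted p = 0.102), and it lay below 0 at −0.12 and −0.06 with mitochondrial and spike-in scaling. It passed as higher without cerebrum mutant 1 (0.37, edgeR adjusted p = 0.0261), in the fit over all 21 libraries (0.34, edgeR adjusted p = 0.0386) and with DESeq2 (0.33, adjusted p = 0.0369). Gly-GCC-2 and Gly-GCC-3-1 had log2 changes of 0.11 ± 0.13 and 0.20 ± 0.14 (SE) with overlapping groups.

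None of the CCC, TCC and ACC isodecoders passed in cerebrum. Gly-CCC-1, which accounts for 98.4% ± 0.539 (SD, n = 6) of CCC counts in wildtype cerebrum, had a log2 change of 0.12 ± 0.11 (SE). Gly-TCC-1, the sole TCC sequence, stood at 0.20 ± 0.12 (SE), with 3 of 4 mutants above every wildtype library. Gly-CCC-3-1 was at −0.33 ± 0.22 (SE, edgeR adjusted p = 0.315) and passed as lower with mitochondrial (−0.72, edgeR adjusted p = 0.00761) and spike-in scaling (−0.68, edgeR adjusted p = 0.0122). Gly-CCC-2 was at 0.00 ± 0.27 and Gly-ACC-1-1 at 0.03 ± 0.31 (SE), both on few counts and with wide errors. Across the 9 glycine tRNAs the median log2 change was 0.11, against −0.03 for all tRNAs tested and −0.08 for the other nuclear tRNAs. With mitochondrial scaling these medians moved to −0.28 for glycine and −0.41 for all, and with the spike-in to −0.23 and −0.36. Then 2 of 9 glycine tRNAs passed as lower under either scaling, against 53.4% of all tRNAs with mitochondrial and 35.6% with spike-in scaling. The tRNAs for the other codons that begin with G carry alanine, valine, aspartate and glutamate. With TMM scaling 6 of these 40 passed as lower and none as higher, beside 1 lower of 9 glycine tRNAs on that scale.

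Mitochondrial Gly-TCC-MT passed as higher in mutant cerebrum, as did 15 of the 22 mitochondrial tRNAs, whose median log2 change was 0.42. Its level was 4145, 4433, 5044 and 4701 CPM in mutants and from 2839 to 3871 CPM, with a median of 3392, in wildtype. The log2 change was 0.42 ± 0.12 (SE, edgeR adjusted p = 0.0122). With the spike-in as the scale Gly-TCC-MT stood at 0.09 and did not pass. It was 0.03, and did not pass, once libraries were scaled to their mitochondrial total. That total includes Gly-TCC-MT and the other mitochondrial tRNAs, so a value near 0 there was largely set by the scale and is no check. The difference between Gly-TCC-MT and Gly-TCC-1 was not tested.

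In cerebellum 3 glycine tRNAs fell in mutants, and all were minor isodecoders. Gly-CCC-2, of the anticodon that reads GGG, had 244, 219, 229, 167 and 222 CPM in the 5 mutants and from 318 to 401 CPM, with a median of 346, in the 6 wildtype libraries. No mutant reached the lowest wildtype library. Its log2 change of −0.70 ± 0.13 (SE, edgeR adjusted p = 0.00901) had the lowest p of all 202 tRNAs tested. Gly-GCC-1 had 1455, 1390, 1181, 1184 and 1201 CPM in mutants and from 1556 to 2023 CPM, with a median of 1843, in wildtype, again without overlap. Its log2 change was −0.52 ± 0.11 (SE, edgeR adjusted p = 0.0149).

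Gly-CCC-3-1 had 214, 193, 311, 200.4 and 255 CPM in mutants and from 300.0 to 375 CPM, with a median of 355, in wildtype. It was the third to pass. Here 4 of 5 mutants lay below every wildtype library and mutant 3 overlapped them. The log2 change was −0.57 ± 0.14 (SE, edgeR adjusted p = 0.0335). In all, 2.48% of the 202 tRNAs passed, 1.98% as lower and 0.495% as higher. Of the tRNAs lower without overlap, which were 1.98% of those tested, Gly-CCC-2 and Gly-GCC-1 are 2 of 4, and 0.99% were higher without overlap. None of 38 tRNAs for the other codons beginning with G passed, and 1 of 171 nuclear tRNAs other than glycine was lower and 1 higher. The glycine tRNAs were chosen with earlier results of these data known. Their count beside these others is therefore a description, and was not tested.

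The abundant glycine tRNAs of the cerebellum did not pass. The log2 changes were −0.05 ± 0.10 for Gly-TCC-1, −0.07 ± 0.10 for Gly-CCC-1 and −0.09 ± 0.10 for Gly-GCC-4-1 (SE). Gly-GCC-2 (−0.13 ± 0.11), Gly-GCC-3-1 (−0.11 ± 0.12) and Gly-ACC-1-1 (0.08 ± 0.24) did not pass either. These 6 had overlapping groups. The median over the 9 was −0.11, against −0.03 for all tRNAs. Scaled to the mitochondrial total, 6 of 9 glycine tRNAs and 26.2% of all tRNAs passed as lower, and the median was −0.46, against −0.37 for all tRNAs. Scaled to the spike-in, 8 of 9, all but Gly-ACC-1-1, and 41.1% of all tRNAs passed as lower, with a median of −0.65 against −0.59 for all. Gly-TCC-MT lay at 0.28 ± 0.14 (SE, edgeR adjusted p = 0.261) with TMM. It was at −0.12 with mitochondrial scaling, whose total includes it, so that value is no check.

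**Figure D2:**
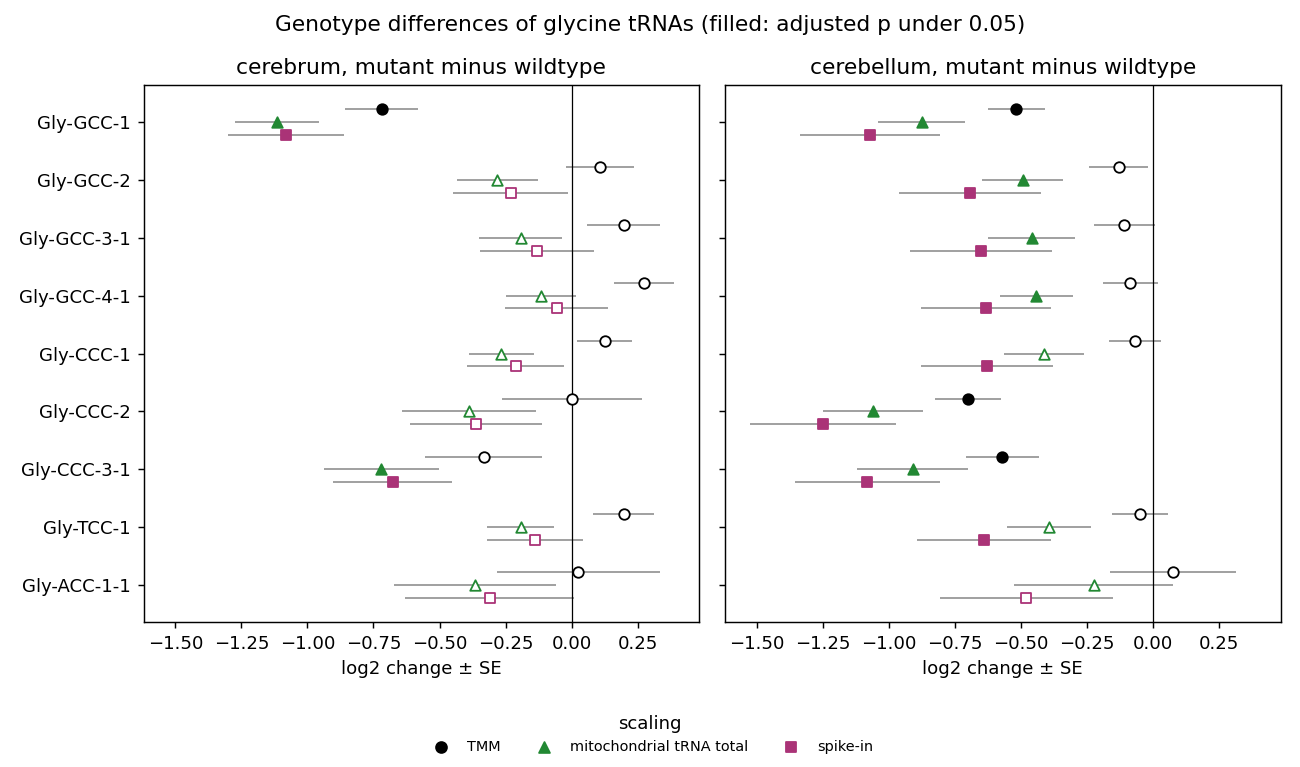
Log2 change (mutant minus wildtype) of each glycine isodecoder with its standard error, in cerebrum (left) and cerebellum (right), under TMM, mitochondrial total and spike-in scaling; filled symbols passed with an adjusted p under 0.05 over all tRNAs. Gly-GCC-1 is filled under all 3 scalings in both tissues, at −0.72 and −0.52 with TMM.

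Depth, the samples fitted and single libraries touched the cerebellum calls. In the fit of all 21 libraries Gly-GCC-1 alone passed, while Gly-CCC-2 (−0.64, edgeR adjusted p = 0.0544) and Gly-CCC-3-1 (−0.51, edgeR adjusted p = 0.115) did not. Gly-CCC-3-1 also did not pass among nuclear tRNAs only (−0.52, edgeR adjusted p = 0.0505) or with sex as a covariate (−0.53, edgeR adjusted p = 0.0658). With depth class as a covariate none of the 9 glycine tRNAs passed, nor did any of the 202. The log2 changes were then −0.64 for Gly-CCC-2 (edgeR adjusted p = 0.0682), −0.43 for Gly-GCC-1 (edgeR adjusted p = 0.134) and −0.66 for Gly-CCC-3-1 (edgeR adjusted p = 0.1001). Between the 1 mutant and 5 wildtype libraries of the shallow class the differences were −0.52, −0.34 and −0.68 in the same order, and between the 4 mutants and 1 wildtype library of the deep class −0.77, −0.53 and −0.67. In each class all mutants lay below all wildtype libraries for these 3 tRNAs, but 1 side of each class is only 1 library. For Gly-CCC-2 and Gly-GCC-1 this had to follow, since their genotypes did not overlap over all cerebellum libraries, so it tells nothing about depth. The share of all tRNAs separated in both classes was not counted, so this separation does not restore the lost calls. Gly-GCC-1 did not pass without cerebellum wildtype 1 (edgeR adjusted p = 0.0788) or 6 (edgeR adjusted p = 0.0598). Gly-CCC-3-1 lost its call when mutant 1, 2 or 4, or wildtype 1, 4, 5 or 6, was left out, with log2 changes from −0.51 to −0.57 and edgeR adjusted p from 0.0721 to 0.115. Gly-CCC-2 passed with any library left out.

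A ratio of isodecoders within glycine does not depend on how libraries are scaled, so the make-up of each anticodon was compared next. In cerebrum Gly-GCC-1 supplied 16.2%, 15.1%, 13.7% and 11.6% of GCC counts in the 4 mutants and 21.2% to 27.4%, with a median of 24.7%, in wildtype. The means were 14.2% ± 1.96 (SD, n = 4) and 24.4% ± 2.89 (SD, n = 6). Gly-GCC-4-1 held most of the rest, 77.1% ± 1.78 in mutants and 67.3% ± 2.62 in wildtype. In cerebellum mutants had a Gly-GCC-1 share of 15.5% ± 1.41 (SD, n = 5) and wildtype libraries one of 19.8% ± 1.48 (SD, n = 6), and the highest mutant (17.564%) and the lowest wildtype library (17.576%) lay next to each other.

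Within CCC, Gly-CCC-2 supplied 2.15% ± 0.246 (SD, n = 6) of counts in wildtype cerebellum and 1.42% ± 0.257 (SD, n = 5) in mutants. In cerebrum it was 0.305% ± 0.118 and 0.281% ± 0.0542. Gly-CCC-3-1 went with it in cerebellum, at 2.14% ± 0.226 in wildtype and 1.55% ± 0.418 in mutants. Gly-CCC-1 held nearly all the rest in both genotypes, from 95.3% to 97.8% over the cerebellum libraries.

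The ratio of each tRNA to the rest of its amino acid was tested with limma over all nuclear tRNAs. In cerebrum 31.5% of 184 passed, 20.1% lower and 11.4% higher. Among 9 glycine tRNAs Gly-GCC-1 passed as lower (log2 change −0.89 ± 0.13 SE, limma adjusted p = 0.000348) and Gly-GCC-4-1 as higher (0.15 ± 0.05 SE, limma adjusted p = 0.0219). The latter did not pass without mutant 2 (limma adjusted p = 0.0531) or mutant 4 (limma adjusted p = 0.0957). In cerebellum 5.59% of 179 passed, 3.91% as lower and 1.68% as higher, and the glycine tRNAs among them were Gly-CCC-2 (−0.62 ± 0.13 SE, limma adjusted p = 0.0109) and Gly-GCC-1 (−0.44 ± 0.10 SE, limma adjusted p = 0.0141), both lower. Gly-CCC-3-1 did not pass at −0.50 ± 0.15 (SE, limma adjusted p = 0.0846), though it passed without mutant 3 (limma adjusted p = 0.00793), mutant 5 (limma adjusted p = 0.0369) or wildtype 3 (limma adjusted p = 0.0481). With depth class as a covariate the cerebellum ratios of Gly-CCC-2 (−0.60, limma adjusted p = 0.108) and Gly-GCC-1 (−0.40, limma adjusted p = 0.156) did not pass.

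**Figure D3:**
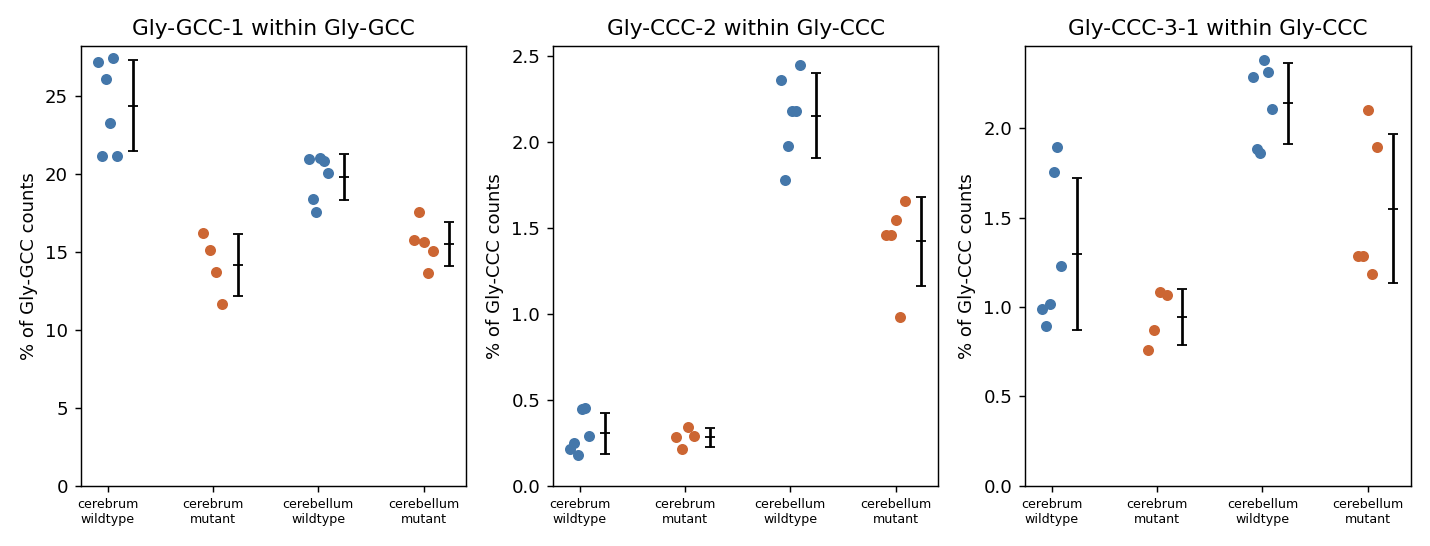
Share of an anticodon's counts supplied by Gly-GCC-1, Gly-CCC-2 and Gly-CCC-3-1 in each library (percent, linear axes from 0); points are libraries, and bars beside them give mean ± SD. Gly-GCC-1 falls from a mean of 24.4% to 14.2% of GCC counts in cerebrum, and Gly-CCC-2 from 2.15% to 1.42% of CCC counts in cerebellum.

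Summed by anticodon, no glycine total passed in either tissue. In cerebrum the log2 changes were 0.00 ± 0.12 for GCC, 0.04 ± 0.11 for CCC, 0.12 ± 0.12 for TCC and −0.05 ± 0.37 for ACC (SE). DESeq2 called 0 of these 4, with no share over all anticodons given here. The edgeR test called 0 of these 4 and 11.1% of 72 anticodons, 8.33% as higher and 2.78% as lower. No glycine total had an unadjusted p under 0.05 there, against 21 of 72, or 29.2%, in all. GCC stood at 4533 ± 443 CPM (SD, n = 6) in wildtype and 4523 ± 463 CPM (SD, n = 4) in mutants, and all mutants lay within the wildtype range. With mitochondrial scaling the GCC total passed as lower (−0.32, edgeR adjusted p = 0.0454), as did 36.1% of all anticodons.

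In cerebellum the totals were at −0.23 ± 0.10 for GCC, −0.15 ± 0.10 for CCC, −0.11 ± 0.11 for TCC and 0.02 ± 0.25 for ACC (SE). DESeq2 called 0 of the 4, with no share over all anticodons given here. The edgeR test called 0 of the 4 and 0 of 71 in all. At an unadjusted p under 0.05 there were 1 glycine total and 17 of 71 anticodons, or 23.9%. The glycine total among them was GCC (edgeR adjusted p = 0.204). It lay at 8843, 7989, 7584, 8632 and 7365 CPM in mutants and from 8582 to 10792 CPM, with a median of 9399.9, in wildtype, with 3 mutants below every wildtype library. GCC passed as lower with mitochondrial scaling (−0.52, edgeR adjusted p = 0.00725), and GCC, CCC and TCC passed with the spike-in (−0.71, −0.65 and −0.64, edgeR adjusted p = 0.0457 for each). Of all anticodons, 15.5% passed as lower with the former and 22.5% with the latter.

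Whether the genotype effect differed between tissues was tested with an interaction term over all 21 libraries, and no glycine tRNA passed in the main fit. DESeq2 called 0 of 9 glycine tRNAs, with no share over all tRNAs given here. In the edgeR test 4.9% of 204 tRNAs passed, and 0 of 9 glycine tRNAs. At an unadjusted p under 0.05 there were 2 of 9 glycine tRNAs, and 30 of 204, or 14.7%, in all. Those 2 were Gly-CCC-2, with a log2 change lower in cerebellum than in cerebrum by −0.71 ± 0.31 (SE, edgeR adjusted p = 0.239), and Gly-GCC-4-1 (−0.37 ± 0.17 SE, edgeR adjusted p = 0.243). With same-numbered libraries of a genotype fitted as blocks across tissues, Gly-CCC-2 did pass (−0.78, edgeR adjusted p = 0.0498). The labels do not say whether such libraries share a mouse. For Gly-GCC-1, which fell in both tissues, the difference in the main fit was 0.18 ± 0.18 (SE).

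Between tissues, wildtype cerebellum held more of every glycine isodecoder than wildtype cerebrum relative to the tRNA pool. All 9 passed as higher, against 33.3% of the 204 tRNAs tested, and their median log2 difference was 1.07, against −0.05 for all. On the CPM scale fitted over both tissues, Gly-CCC-2 ran from 19.1 to 54.9 CPM, with a median of 30.7, in the 6 cerebrum libraries and from 271 to 360 CPM, with a median of 309, in the 6 cerebellum libraries. The gap between the groups was wide. The log2 difference was 3.20 ± 0.22 (SE, edgeR adjusted p = 1.34e-12), or 9.16-fold, the lowest p and the second highest log2 difference of all 204.

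The other GCC and CCC isodecoders had smaller tissue differences. Gly-GCC-2 (1.17 ± 0.12), Gly-GCC-3-1 (1.14 ± 0.13), Gly-CCC-3-1 (1.10 ± 0.19) and Gly-ACC-1-1 (1.07 ± 0.26) were a little over 2-fold higher, and Gly-GCC-4-1 (0.81 ± 0.11) 1.75-fold. Gly-TCC-1 (0.47 ± 0.11), Gly-GCC-1 (0.47 ± 0.12) and Gly-CCC-1 (0.36 ± 0.10) had the smallest differences (SE). In 7 of these 9 the wildtype groups did not overlap, against 24.5% of all tRNAs, and Gly-GCC-1 and Gly-ACC-1-1 overlapped. Among tRNAs for the other codons beginning with G, 24 of 38 were higher and 3 lower, with a median of 0.60. Gly-TCC-MT did not pass at 0.12 ± 0.12 (SE).

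In mutants 7 of 9 glycine tRNAs passed as higher in cerebellum, against 35.8% of all, and none as lower, against 36.8% of all. Gly-CCC-2 again led the glycine tRNAs with 2.48 ± 0.25 (SE, edgeR adjusted p = 5.34e-09), or 5.59-fold. Gly-TCC-1 (0.21 ± 0.13) and Gly-CCC-1 (0.15 ± 0.11) did not pass. In the 6 whose mutant groups did not overlap, Gly-CCC-2, Gly-CCC-3-1 and the 4 GCC isodecoders, cerebellum was higher, as it was without overlap in 23% of all tRNAs.

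Most of these tissue calls did not hold with the spike-in as the scale, while with mitochondrial total scaling 9 of 9 passed as higher in wildtype, against 33.8% of all tRNAs, and 7 of 9 in mutants, against 37.3%. With the spike-in the median wildtype difference of all tRNAs moved from −0.05 to −0.99, and Gly-CCC-2 alone among glycine tRNAs still passed as higher, at 2.27 ± 0.25 in wildtype and 1.39 ± 0.29 in mutants (SE). Gly-CCC-1 then passed as lower in wildtype (−0.55), and Gly-GCC-1, Gly-GCC-4-1 and Gly-TCC-1 also lay below 0. In mutants Gly-CCC-1 (−0.96), Gly-TCC-1 (−0.89) and Gly-GCC-4-1 (−0.68) passed as lower. Of all tRNAs, 2.94% passed as higher and 67.6% as lower in wildtype on this scale, and 4.41% and 69.1% in mutants. The spike-in took 0.222% to 0.374% of counts in cerebrum libraries and 0.401% to 1.08% in cerebellum libraries, and the sources used here do not say how much was added. Tissue and count table cannot be told apart, since each tissue has its own table. Among the deep libraries alone, an alternative chosen after seeing the data, 7 of 9 glycine tRNAs passed as higher in mutant cerebellum (4 against 4 libraries, with 32.8% of all tRNAs), with Gly-CCC-2 at 2.44 ± 0.29 (SE). In wildtype, where 1 deep cerebellum library stood against 6 of cerebrum and was assumed to vary like the other groups, 5 of 9 passed, with 20.6% of all. Gly-CCC-2 was then at 3.21 ± 0.34 (SE). The 4 that did not pass, Gly-ACC-1-1, Gly-CCC-1, Gly-GCC-1 and Gly-TCC-1, had log2 differences of 1.09, 0.35, 0.43 and 0.41.

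**Figure D4:**
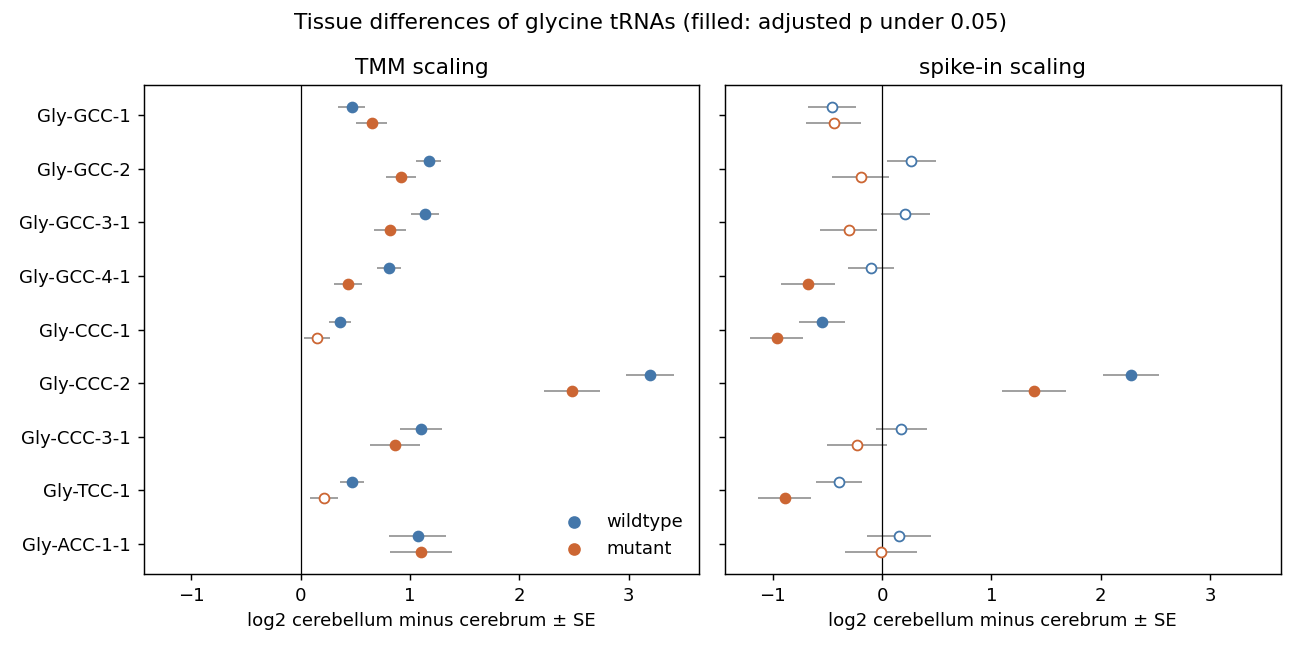
Log2 difference between cerebellum and cerebrum of each glycine isodecoder with its standard error, in wildtype (blue) and mutant (orange) libraries, with TMM (left) and spike-in (right) scaling; filled symbols passed with an adjusted p under 0.05. Gly-CCC-2 is the only one filled above 0 on both scales.

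The authors' deposited tables give the same tRNAs with larger falls. In the authors' deposited table for cerebrum isodecoders the signs are those of wildtype minus mutant and were turned here. The authors' deposited table then gives Gly-GCC-1 at −1.12 (adjusted p = 1.89e-12) and also lists Gly-CCC-1 (−0.28), Gly-CCC-3-1 (−0.73) and Gly-GCC-2 (−0.30) with an adjusted p under 0.05, 4 of 9 in all, against 57.9% of its 209 tRNAs with an adjusted p, 57.4% as lower. In the authors' deposited table for cerebellum Gly-CCC-2 stands at −1.01 (adjusted p = 2.4e-06), Gly-CCC-3-1 at −0.87, Gly-GCC-1 at −0.83 and Gly-CCC-4-1 at −1.01, and 7 of 10 have an adjusted p under 0.05, against 24.5% of 208, all of them lower. For anticodon sums the authors' deposited tables give GCC at −0.33 in cerebrum and −0.48 in cerebellum and CCC at −0.29 in cerebrum, each with an adjusted p under 0.05. Among all anticodons with an adjusted p the authors' deposited tables have 45.8% of 72 under 0.05 in cerebrum, 44.4% as lower, and 18.3% of 71 in cerebellum, all lower. Over all shared isodecoders the values of the authors' deposited tables lay below the TMM values by a median of 0.41 in cerebrum and 0.30 in cerebellum, written as differences of −0.41 and −0.30. For shared anticodon totals the median difference was −0.33 in cerebrum, where GCC stands at −0.33 and CCC at −0.29. It was −0.26 in cerebellum. The sources used here do not say how the libraries behind these tables were scaled.

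The anticodon totals whose levels ran most like the glycine totals over the 21 libraries all read codons that begin with G. Among nuclear totals of other amino acids tested in cerebrum, 9 of 46 read such codons. The lists below share members, and Val-CAC stands in each. Likeness was the root mean square difference of log2 CPM after centring each total on its mean, over 46 nuclear anticodon totals of other amino acids. For GCC the closest were Val-CAC (0.14), Val-TAC (0.17) and Ala-AGC (0.17), against a median of 0.62 over the 46. For CCC they were Glu-CTC (0.16), Ala-TGC (0.20) and Val-CAC (0.22), against a median of 0.48, and for TCC Glu-CTC (0.16), Val-CAC (0.20) and Val-TAC (0.22), against 0.51. Gly-CCC and Gly-TCC differed by 0.14 from each other, and Gly-GCC by 0.19 and 0.21 from them. These values describe libraries that share their tissue and scaling, and carry no test.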

How the data were processed

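QuantM-tRNA-seq libraries were made from Trizol-extracted total RNA. The tools named in the submitters' processing notes are featureCounts, Bowtie2, cutadapt and DESeq2, without versions, and the build is mm10. The authors deposited raw read counts per tRNA, 1 table per tissue. The authors also deposited log2 fold changes with standard errors and adjusted p-values. The sources used here do not say how reads shared by sister isodecoders were counted, so splits between them are uncertain.

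From the deposited counts, tests used edgeR 4.0.16 (R 4.3.3): TMM, filterByExpr (minimum count 10), quasi-likelihood fits with the robust option, two-sided tests and Benjamini-Hochberg adjustment over all tRNAs with a threshold of 0.05. The spike-in row, up to 1.08% of counts, stayed out of library sizes and tests. Standard errors were computed by dividing the log2 change by the root of F. Genotypes were compared tissue by tissue, and tissue comparisons used all 21 libraries. Within-amino-acid ratios, log2 with a pseudocount of 0.5, used limma 3.58.1 with an intensity trend and robust variances. Alternatives were other scalings and filters, DESeq2 1.42.0, limma-voom, covariates, a replicate block and leaving out libraries. The steps were tested on simulated counts. The most alike replicates, cerebellum wildtype 1 and 6, differed by a chi-square of 44.3 per degree of freedom, so no library was counted as a duplicate.

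All glycine rows and anticodon totals were named in each comparison, with Gly-TCC-MT and the 3 nuclear totals of other amino acids most like each. Members and lists were chosen with earlier results of these data known.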

Additional observations from a re-analysis of the deposited data

Results flagged for a closer look

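In 50 checks of glycine levels within groups of 4 to 6 libraries, 4 had 1 library whose gap to its nearest neighbour exceeded Dixon's critical value, and chance alone marks about 1 group in 20. Cerebrum wildtype 1 was the lowest of its group for the Gly-CCC total (9050 CPM) and for Gly-GCC-2 (154 CPM). Cerebellum wildtype 2, the shallowest library, was the highest of its group for Gly-CCC-1 (17257 CPM) and for Gly-GCC-3-1 (625.1 CPM). None of these 4 features was among the glycine calls between genotypes. The glycine calls with TMM did not rest on these libraries. Gly-GCC-1 passed without cerebrum wildtype 1 (−0.70), and Gly-CCC-2 (−0.72), Gly-GCC-1 (−0.49) and Gly-CCC-3-1 (−0.58) passed without cerebellum wildtype 2.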

How the results depend on the processing

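Counts of glycine tRNAs that passed, in either direction, kept within 1.5 times their value under 82 of 102 alternatives other than leaving out 1 library. In cerebrum the count of isodecoders was 1 and became 2 with mitochondrial total scaling, spike-in scaling, DESeq2, the replicate block and the joint fit. In the main fit there, 19.7% of all 208 tRNAs passed. In cerebellum it was 3 and became 6 with mitochondrial total scaling, 8 with the spike-in, 1 in the joint fit and 0 with depth class as a covariate. For anticodon totals 0 became 1 with mitochondrial total scaling in each tissue, and 3 with the spike-in in cerebellum. The tissue difference of the genotype effect went from 0 to 1 with the replicate block, Gly-CCC-2 at −0.78 (edgeR adjusted p = 0.0498). Cerebellum against cerebrum went from 9 to 2 in wildtype and from 7 to 4 in mutants with the spike-in. Of these spike-in calls only Gly-CCC-2 was higher in cerebellum, in each genotype, and the others were lower. In wildtype the count also moved among deep libraries only, which was chosen after seeing the data and leaves 1 cerebellum library. Ratios within the amino acid went from 2 to 1 in cerebrum with the rest of the nuclear tRNAs as reference and with the replicate block, and in cerebellum from 2 to 1 with the replicate block and 0 with depth class as a covariate. With 1 library left out the counts ran from 1 to 2 in cerebrum and from 1 to 4 in cerebellum, and for ratios from 1 to 2 and from 2 to 3. The other counts stayed at their values. The count of 4 includes the scarce Gly-CCC-4-1, which the filter kept out of the main fit. Except where given in the results above, the share of all tRNAs passing under an alternative is not given here. Such counts therefore have no background beside them and say nothing about glycine tRNAs as a set. The cause of each change was not tested.

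The labels do not say whether libraries with the same number share a mouse. Correlations of same-numbered libraries ran from −0.18 to 0.61 between genotypes, with 3 of 9 pairs over 0.1, and from −0.10 to 0.44 between tissues, with 6 of 10 over 0.1 and the same sex label in 10 of 10. Not every pair was over 0.1, so the replicate block was kept as an alternative, and pairing between tissues remains possible. With the replicate block, Gly-CCC-3-1 in cerebellum did not pass (−0.59, edgeR adjusted p = 0.109), Gly-GCC-4-1 in cerebrum passed (0.31, edgeR adjusted p = 0.0336), and signs turned for Gly-ACC-1-1 (−0.24 in cerebrum, −0.10 in cerebellum, −0.014 as a cerebellum ratio), the Gly-GCC total in cerebrum (0.0265), the Gly-ACC total in cerebellum (−0.16) and the Gly-CCC-2 ratio in cerebrum (0.077).

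Of 2376 values of single glycine tRNAs and totals under alternatives, 115 changed sign, and no genotype call did. Mitochondrial total scaling put below 0 in cerebrum Gly-ACC-1-1 (−0.37), Gly-CCC-1 (−0.27), Gly-CCC-2 (−0.39), Gly-GCC-2 (−0.28), Gly-GCC-3-1 (−0.19), Gly-GCC-4-1 (−0.12), Gly-TCC-1 (−0.19) and the CCC and TCC totals (−0.27 and −0.19), and in cerebellum Gly-ACC-1-1 (−0.22) and the ACC total (−0.23). The spike-in did so in cerebrum for Gly-ACC-1-1 (−0.31), Gly-CCC-1 (−0.21), Gly-CCC-2 (−0.36), Gly-GCC-2 (−0.23), Gly-GCC-3-1 (−0.13), Gly-GCC-4-1 (−0.057), Gly-TCC-1 (−0.14) and the CCC and TCC totals (−0.22 and −0.14), in cerebellum for Gly-ACC-1-1 (−0.48) and the ACC total (−0.47), and for the tissue difference of Gly-ACC-1-1 (−0.16). Cerebellum against cerebrum with the spike-in was −0.55 for Gly-CCC-1, −0.46 for Gly-GCC-1, −0.10 for Gly-GCC-4-1 and −0.39 for Gly-TCC-1 in wildtype, and in mutants −0.0065 for Gly-ACC-1-1, −0.96 for Gly-CCC-1, −0.23 for Gly-CCC-3-1, −0.44 for Gly-GCC-1, −0.19 for Gly-GCC-2, −0.31 for Gly-GCC-3-1, −0.68 for Gly-GCC-4-1 and −0.89 for Gly-TCC-1. Library totals turned Gly-ACC-1-1 (−0.024), Gly-CCC-2 (−0.027) and the GCC total (0.046) in cerebrum, and a mean count of at least 50 turned Gly-CCC-2 (−0.0007) and the CCC total (−0.03), as RLE and DESeq2 did the latter (−0.0392 and −0.0393). Nuclear tRNAs only turned Gly-TCC-1 in cerebellum (0.0031), the ACC and GCC totals in cerebrum (0.024 and 0.0765) and the tissue difference of Gly-ACC-1-1 (−0.01). Depth class as a covariate turned Gly-GCC-4-1 (0.0305), the ACC total (−0.051) and the ratios of Gly-GCC-2 (0.043), Gly-GCC-3-1 (0.013) and Gly-TCC-1 (−0.0023). The joint fit and leaving out mutants 1 and 5 turned Gly-TCC-1 in cerebellum (0.0086 and 0.017), and limma-voom the ACC total there (−0.012). The rest of the nuclear tRNAs as reference turned the ratios of Gly-ACC-1-1 (0.0275), Gly-CCC-1 (0.14), Gly-CCC-2 (0.078) and Gly-GCC-2 (0.12) in cerebrum and of Gly-CCC-1 (−0.036), Gly-GCC-4-1 (−0.047) and Gly-TCC-1 (−0.0077) in cerebellum.

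Leaving out 1 library turned signs only of values that did not pass. In cerebrum these were Gly-ACC-1-1 (−0.26 to 0.19), Gly-CCC-2 (−0.17 to 0.20) and the totals of ACC (−0.34 to 0.12), CCC (−0.0128 to 0.0831) and GCC (−0.055 to 0.0506). In cerebellum they were Gly-ACC-1-1 (−0.0631 to 0.24), Gly-CCC-1 (−0.11 to 0.0017) and the ACC total (−0.15 to 0.20). The tissue difference of Gly-ACC-1-1 ran from −0.16 to 0.30. Ratios in cerebrum were Gly-ACC-1-1 (−0.39 to 0.12) and Gly-CCC-2 (−0.21 to 0.0446), and in cerebellum Gly-ACC-1-1 (−0.0141 to 0.27), Gly-CCC-1 (−0.0038 to 0.0748), Gly-GCC-2 (−0.086 to 0.0006), Gly-GCC-3-1 (−0.043 to 0.0486), Gly-GCC-4-1 (−0.0269 to 0.0569) and Gly-TCC-1 (−0.0048 to 0.13). Depth limits Gly-ACC-1-1 and Gly-CCC-4-1, at mean counts of 24 to 62.4 and 16.3 to 18.6 per library.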
